A study of Mus musculus with 8 samples.

Results

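The lysosomal proteases called cathepsins, the subunits of the vacuolar proton pump (V-ATPase), its accessory proteins Atp6ap1 and Atp6ap2, and the lysosomal membrane proteins Lamp1 and Lamp2 were followed in livers of mice that received AAV8-AGXT or AAV8-GFP. The genes were those of the deposited count tables whose symbol was Cts followed by 1 letter, began with Atp6v0 or Atp6v1, or was Atp6ap1, Atp6ap2, Lamp1 or Lamp2, and which GENCODE M21 on GRCm38 lists as protein coding. This gave 45 of 52636 genes. They were 14 cysteine cathepsins, 4 aspartic or serine cathepsins, 9 genes of the membrane sector V0, 14 genes named for the cytosolic sector V1, 2 accessory genes and 2 Lamp genes.

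All 8 mice were wild-type C57BL/6J males, injected at 7 weeks of age with an adeno-associated virus (AAV8) whose cargo was driven by the thyroxine binding globulin (TBG) promoter, which is active in hepatocytes. The cargo was green fluorescent protein in the 4 AAV8-GFP mice (303, 311, 314 and 315) and human AGXT in the 4 AAV8-AGXT mice (308, 309, 316 and 319). From 8 weeks of age both groups ate the MASH diet, which is rich in fat, fructose and cholesterol, for 24 weeks, after which whole-liver RNA was sequenced, 1 library per mouse. AGXT is the peroxisomal enzyme that turns glyoxylate into glycine. The study asked how its overexpression in hepatocytes alters diet-induced steatohepatitis, and neither a chow-fed nor an uninjected group was part of this comparison.

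Lysosomes degrade proteins, lipids and sugars at an acidic pH. The V-ATPase provides the acid: its V1 sector hydrolyses ATP on the cytosolic side and turns a rotor, and its V0 sector carries protons across the membrane. Most cathepsins mature and work best in this acid, and Lamp proteins line the membrane that holds it. Hepatocytes are rich in lysosomes, while macrophages, osteoclasts and cytotoxic lymphocytes use particular cathepsins and subunit isoforms of their own. Many of these genes are targets of transcription factor EB (TFEB) and its relatives, which bind promoter elements built around the palindrome CACGTG.

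To show this element in the genes themselves, the RefSeq promoters (GRCm38.p6, 250 bases before to 50 after the start of transcription) were searched for CACGTG, which reads the same on both strands. Of the 45 genes, 35 were in the promoter table, and 9 of these (25.7%) held the palindrome. It was present in 8.09% of 27025 genes with a promoter. All 9 members with it were among the 24 members with a promoter that were also tested for expression. Of all 10968 genes with a promoter that were so tested, 11.4% held it. The longer form TCACGTGA, which contains the shorter one, occurred in 5 of the 35 members (14.3%) and in 1.12% of all genes. These 5 were likewise among the 24 tested members, and 2.08% of all tested genes held it. The windows below are printed 5′ to 3′ on the strand of the gene, with the palindrome in capitals. They are the 5 genes with the longer form, then Lamp1, whose promoter held 4 copies, and Ctsf, the member that passed the test of expression.
Ctsa: tgagcaaactgtCACGTGatgcagatgctc
Ctsd: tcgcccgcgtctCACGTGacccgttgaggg
Atp6v0d1: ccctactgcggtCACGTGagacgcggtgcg
Atp6v0e: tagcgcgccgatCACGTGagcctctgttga
Atp6v1a: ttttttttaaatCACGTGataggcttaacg
Lamp1: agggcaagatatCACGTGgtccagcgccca
Ctsf: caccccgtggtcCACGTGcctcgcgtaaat

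These windows lie at chr2:164833749-164833778 (+) for Ctsa, chr7:142387908-142387937 (-) for Ctsd, chr8:105566050-105566079 (-) for Atp6v0d1, chr17:26676387-26676416 (+) for Atp6v0e, chr16:44139373-44139402 (-) for Atp6v1a, chr8:13159088-13159117 (+) for Lamp1 and chr19:4855074-4855103 (+) for Ctsf. The first base of the printed palindrome stood 12, 98, 3, 131, 61 and 79 bases before the RefSeq start in Ctsa, Ctsd, Atp6v0d1, Atp6v1a, Lamp1 and Ctsf. In Atp6v0e it stood 4 bases after the start. Ctsa held a second copy of the longer form 6 bases after the start, and Ctsd a second palindrome 245 bases before it. Atp6v0b, which held it 36 and 18 bases before its start, and Ctsl were the other genes with the palindrome. A match describes letters only, and binding was not measured here.

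The libraries held from 17095433 to 28780140 counted read pairs. In mouse 308 only 56.3% of the tallied pairs were on genes, and in the other mice at least 62.4% were. The count for mouse Agxt, the gene whose human form the virus carried, was between 148 and 180 counts-per-million (CPM) in AAV8-GFP mice and between 201 and 405 in AAV8-AGXT mice (log2 fold change 0.90, standard error (SE) 0.22, adjusted p = 0.0489). Whether reads of the human transgene were counted there cannot be told from the tables. CPM are scaled by the trimmed mean of M-values (TMM). Differences between groups come from the quasi-likelihood test of edgeR on counts, with Benjamini-Hochberg adjustment over 15248 genes that passed a filter on low counts. All adjusted p-values below are from that test.

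Across the whole set, 1 of 34 tested members passed an adjusted p under 0.05, where 4.35% of all tested genes did. It was Ctsf, and it was higher in AAV8-AGXT mice, as were 2.45% of all tested genes. None was called lower by edgeR (1.9% of all genes), although 8 members were lower and 5 higher at an unadjusted p under 0.05, where 12.6% and 13.5% of all tested genes were (26.2% in all). DESeq2 called 3 members higher and 4 lower, beside 6.96% and 6.59% of the same genes, and limma-voom called Ctsf only, beside 4.47% of all genes (2.65% higher and 1.82% lower). On simulated counts the share of false calls was above its nominal level with DESeq2 and below it with edgeR and limma-voom. The median log2 fold change of the 34 members was -0.02, against 0.02 over all tested genes, and single members ranged from -1.16 to 0.61. For 18 of them the difference was under 0.2 on the log2 scale in either direction.

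The 4 values of one group lay wholly apart from those of the other in 9 of the 34 members (26.5%), where 16.6% of all tested genes did so. Ctsf, Ctsh, Ctso, Lamp2 and Atp6v0a2 were higher in every AAV8-AGXT mouse than in any AAV8-GFP mouse, and Ctsd, Atp6v0e, Atp6v1g1 and Atp6v1g2 were lower. Among all genes 8.93% were apart in the higher and 7.63% in the lower direction. These directions depend on the scaling. With total counts in place of TMM factors, the median log2 fold change of all tested genes moved from 0.02 to -0.22, none of the members lay apart in the higher direction and 11 did in the lower one, where 2.66% and 17.5% of all tested genes did. Relative to the median of all genes, 13 members were above and 21 below under either scaling, and Ctsf stood 0.59 above it under both.

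**Figure D1:**
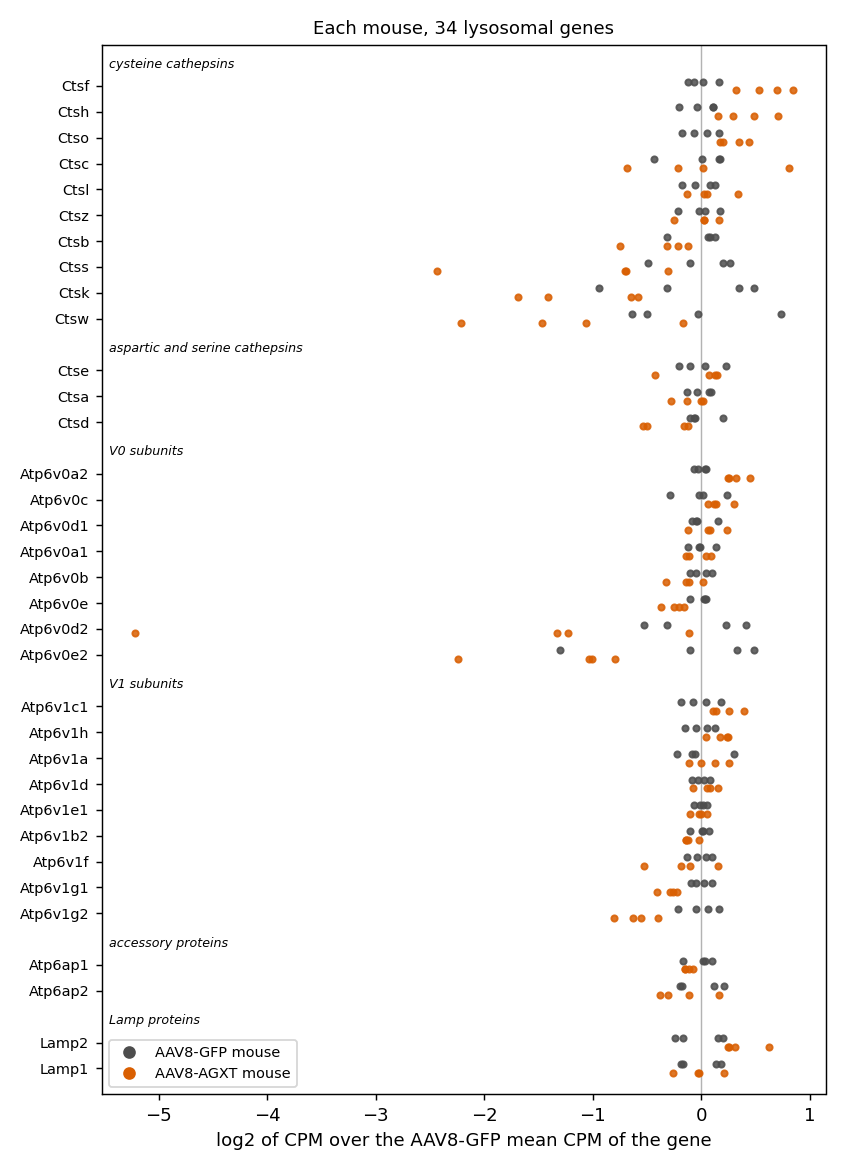
Log2 of the CPM of each mouse over the AAV8-GFP mean of the gene (x axis) for the 34 tested genes (y axis, by role), with AAV8-GFP mice in grey and AAV8-AGXT mice in orange. Most genes sit within a narrow band around 0 in both groups, all 4 orange points of Ctsf lie to the right of the grey ones on this TMM scale, and Ctss, Ctsk, Ctsw, Atp6v0d2 and Atp6v0e2 spread far to the left, with mouse 308 the lowest in each.

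The summed level of all members was 5155 ± 217 CPM (SD, n = 4 in each group) in AAV8-GFP mice against 4997 ± 347 CPM in AAV8-AGXT mice, and cathepsins made up most of it, at 3216 ± 102 and 2999 ± 359 CPM. V0 genes summed to 380.0 ± 13.5 and 371 ± 19.5 CPM, and V1 genes to 525 ± 12.5 and 512 ± 24.2 CPM. Each of these pairs of groups overlapped. Levels of different genes were compared as CPM per kb of the longest principal transcript. Ctsz was the most abundant member by this measure (322 in AAV8-GFP and 323 CPM per kb in AAV8-AGXT mice), ahead of Lamp1 (254 and 251), Ctsb (191 and 152), Ctsd (182 and 146), Ctsh (116 and 155) and Ctsl (118 and 125). At the low end stood Ctse (0.909 and 0.907 CPM per kb), Atp6v0e2 (1.83 and 0.809), Ctsw (2.32 and 1.13), Atp6v0d2 (3.04 and 1.35) and Ctsk (3.24 and 1.62). With the length of all annotated exons instead, Ctsz, Lamp1, Ctsd, Ctsb and Ctsl were the first 5, and Ctsh moved from rank 5 to rank 11. Atp6v1f and Atp6v1e1 were the most abundant V1 genes per kb of principal transcript and Atp6v0b the most abundant V0 gene.

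**Figure D2:**
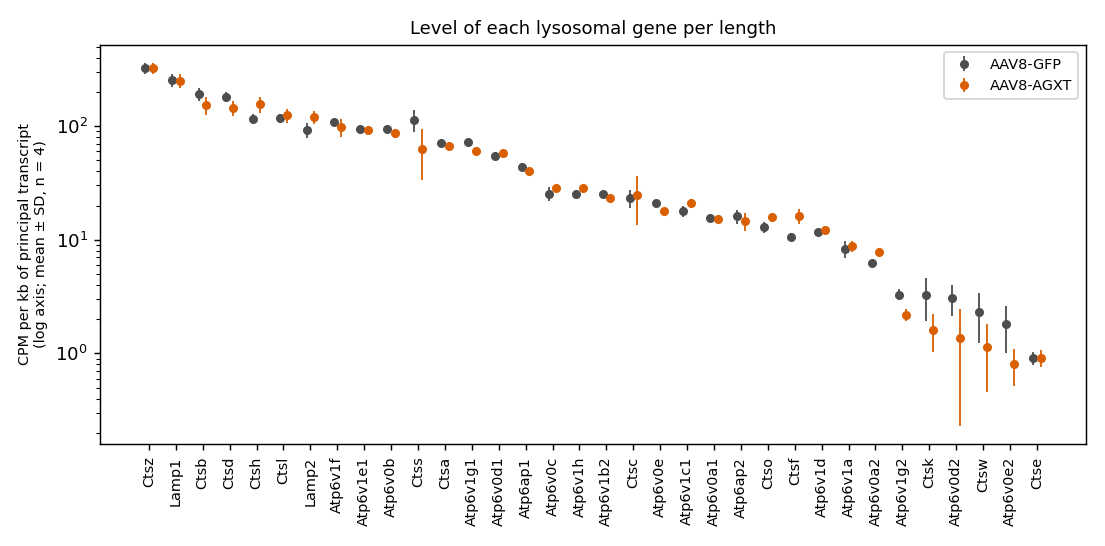
CPM per kb of principal transcript (log axis, mean ± SD of 4 mice) for the 34 tested genes in order of level, with AAV8-GFP in grey and AAV8-AGXT in orange. Levels span from about 323 CPM per kb for Ctsz to about 0.91 for Ctse, and the widest bars belong to scarce genes and to Ctss and Ctsc.

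Cysteine cathepsins ranged from -1.03 to 0.61 in log2 fold change. Of the 10 tested ones, 3 lay apart in the higher direction, where 8.93% of all tested genes did. Another 3 had log2 fold changes from -1.03 to -0.84 without lying apart. The lowest values of any member, -1.16 and -1.15, belonged to Atp6v0e2 and Atp6v0d2 of the V0 sector. Values are listed in the order of mice 303, 311, 314 and 315, then 308, 309, 316 and 319. Ctsf (ENSMUSG00000083282, chromosome 19, 4855130 to 4860918), an endopeptidase whose loss causes a neuronal storage disease, had 23.5, 19.3, 21.3 and 20.1 CPM in AAV8-GFP mice and 34.1, 26.3, 30.5 and 37.8 CPM in AAV8-AGXT mice. Every AAV8-AGXT mouse was above every AAV8-GFP mouse. Its log2 fold change was 0.61 (SE 0.13, adjusted p = 0.0376). That call was narrow, since the adjusted p lay between 0.0328 and 0.146 with each mouse left out in turn and stayed under 0.05 only without mouse 309, and it was 0.0793 with total counts (log2 fold change 0.37).

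Ctsh (chromosome 9, 90054152 to 90076089), an aminopeptidase, had 163, 182, 202 and 201 CPM in AAV8-GFP and 262, 208, 229.9 and 306 CPM in AAV8-AGXT mice. The groups were close at their edges, with mouse 309 just above mouse 314 (log2 fold change 0.43, SE 0.14, adjusted p = 0.103, and 0.18, adjusted p = 0.326, with total counts). Ctso (chromosome 3, 81932601 to 81956725), a widely expressed and little studied member, had 46.2, 39.4, 50.05 and 42.5 CPM against 50.3, 56.7, 51.3 and 60.5 CPM. There too the lowest AAV8-AGXT mouse barely cleared the highest AAV8-GFP mouse (log2 fold change 0.30, SE 0.11, adjusted p = 0.117, and 0.06, adjusted p = 0.749, with total counts).

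Ctsz, a carboxypeptidase, had 523, 459.7, 401 and 475 CPM in AAV8-GFP mice and 474, 390.4, 474 and 522 CPM in AAV8-AGXT mice. The 2 groups covered nearly the same range (log2 fold change 0.0015, SE 0.14). Ctsl, a broad endopeptidase, ran from 643 to 793 CPM in AAV8-GFP and from 665 to 916 CPM in AAV8-AGXT mice, but 26.9% of its exon bases overlap other annotated genes, among them a pseudogene on the same strand, so its count is uncertain. Ctsc, which activates the serine proteases of immune granules, spread from 42.9 to 65.5 CPM in AAV8-GFP mice and from 36.0 to 102 CPM in AAV8-AGXT mice, with the extremes in mice 308 and 319.

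Ctsb, an abundant hepatic endopeptidase with carboxydipeptidase activity, had 727, 959, 986 and 944 CPM against 538, 729, 781 and 832 CPM. Mouse 303 had the lowest AAV8-GFP value, below 3 of the 4 AAV8-AGXT mice (log2 fold change -0.33, SE 0.17, adjusted p = 0.248). Of its exon bases 12.8% overlap another gene.

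Ctss, Ctsk and Ctsw were the 3 cysteine cathepsins with the most negative values, none of which passed the test, and they were singled out after their values were seen. Ctss (chromosome 3, 95526786 to 95556403), which trims the invariant chain in antigen-presenting cells, had 109.9, 185, 178 and 144 CPM in AAV8-GFP mice and 28.4, 94.7, 125 and 95.6 CPM in AAV8-AGXT mice. The groups overlapped through mice 303 and 316, and mouse 308 stood far below the rest (log2 fold change -0.84, SE 0.37, adjusted p = 0.180, and -0.57 without mouse 308). Ctsk, a collagen-degrading protease of osteoclasts and fibroblasts that lies next to Ctss on chromosome 3 (95499256 to 95509362), had 3.94, 6.24, 6.87 and 2.56 CPM against 1.52, 3.12, 3.29 and 1.84 CPM. Mouse 315 lay among the AAV8-AGXT mice (log2 fold change -1.001, SE 0.36, adjusted p = 0.119). Ctsw, a protease of cytotoxic T cells and natural killer (NK) cells, had 2.81, 4.81, 2.03 and 1.85 CPM against 0.621, 1.38, 2.57 and 1.04 CPM. Only mouse 316 reached the AAV8-GFP range (log2 fold change -1.03, SE 0.44, adjusted p = 0.175, and -0.67 without mouse 311).

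Marker genes of the cell types that are known for these proteases were summed in the same mice. The 14 macrophage markers, led in level by Lyz2, Mpeg1 and C1qa, summed to between 937 and 1521 CPM in AAV8-GFP and between 302 and 1051 CPM in AAV8-AGXT mice, lowest in mouse 308. None of the 14 was called by edgeR or was at 0, and 5 were lower at an unadjusted p under 0.05. DESeq2 called 2 and limma-voom 1 of them lower. Of all tested genes, 12.6% were lower and 13.5% higher at that unadjusted p. DESeq2 called 6.59% lower and 6.96% higher, and limma-voom called 1.82% lower. The 9 lipid-associated macrophage markers, led by Spp1, Lpl and Lgals3, summed to between 724 and 1407 CPM against 202 to 674 CPM, without overlap. EdgeR called 1 of them, Cd9, lower, 7 were lower at an unadjusted p under 0.05, and DESeq2 called 6 lower. The 11 stellate cell and fibroblast markers, led by Dcn, Col3a1 and Col1a1, summed to between 563 and 1015 CPM against 227 to 623 CPM. Timp1 and Acta2 were called lower by edgeR, 9 markers were lower at an unadjusted p under 0.05, and DESeq2 called 3 lower. Of 13 T and NK cell markers, 12 were tested and none was called by edgeR or limma-voom, while 5 were lower at an unadjusted p under 0.05 and 3 by DESeq2. They were led by Cd8a, Nkg7 and Cd3g, and the list summed to between 15.2 and 26.5 CPM against 7.11 to 17.5 CPM. Hepatocyte markers were led by Alb, Apoa1 and Apoa2. They summed to between 58630 and 67852 CPM in AAV8-GFP and between 68713 and 98188 CPM in AAV8-AGXT mice. Cps1 was called higher by edgeR, 5 of the 10 were higher at an unadjusted p under 0.05, and DESeq2 called 3 higher. With total counts the hepatocyte sums overlapped (66662 to 73959 against 68782 to 81545 CPM), and the macrophage sums, which overlap on the TMM scale, did not (1023 to 1730 against 251 to 974 CPM). On the TMM scale the sums overlapped for resident Kupffer cells (led by Cd5l, Clec4f and Vsig4), neutrophils and mast cells (Kit, S100a9 and S100a8), dendritic and B cells, endothelium (Stab2, Clec4g and Cdh5) and cholangiocytes, where edgeR called only Cd163, a Kupffer cell marker that was higher. Of the 8 Kupffer cell markers, 3 were higher and 1 lower at an unadjusted p under 0.05, and DESeq2 called 2 higher. All 6 cholangiocyte markers were lower at an unadjusted p under 0.05, with a median log2 fold change of -1.24, and DESeq2 called 4 of them. The dendritic and B cell sums did not overlap with total counts (17.9 to 29.8 against 11.3 to 17.6 CPM). In RNA from whole liver, fewer cells of a type and less RNA per cell cannot be told apart. The part of these markers in the values of Ctss, Ctsk and Ctsw was not tested.

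**Figure D3:**
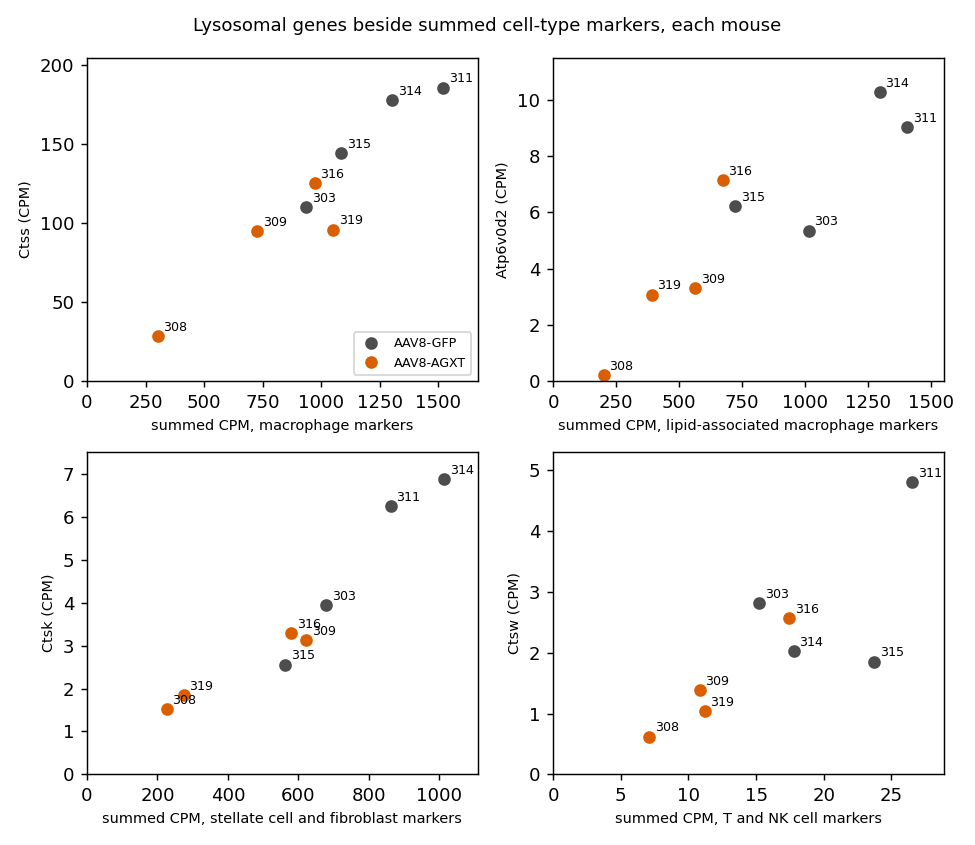
CPM of Ctss, Atp6v0d2, Ctsk and Ctsw (y axes) against the summed CPM of a marker list (x axes: macrophages, lipid-associated macrophages, stellate cells and fibroblasts, T and NK cells) in each of the 8 mice, grey for AAV8-GFP and orange for AAV8-AGXT. Mouse 308 has the lowest sum and the lowest gene level in all 4 panels, with Ctss at 28.4 CPM beside a macrophage sum of 302 CPM.

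Set beside the macrophage marker sum of the same mouse, a comparison added after the values were seen, Ctss came to 12.7 ± 0.887% (SD, n = 4 in each group) of that sum in AAV8-GFP mice against 11.1 ± 2.13% in AAV8-AGXT mice. The 2 ranges overlapped. Ctsk came to 0.399 ± 0.121% and 0.361 ± 0.141%. For the hepatic protease Ctsb the ratio was 75.8 ± 9.84% and 109 ± 46.9%, with the largest value, 178%, in mouse 308. The marker sum averaged 1212 and 763 CPM, while Ctsb averaged 904 and 720 CPM. Its ratio was higher because the sum fell further, so no contrast with Ctss is drawn.

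Of the aspartic and serine cathepsins, Ctsd was lower in every AAV8-AGXT mouse. Ctsd (chromosome 7, 142375911 to 142388038), the main aspartic protease of lysosomes, had 359.5, 444, 369 and 372 CPM in AAV8-GFP mice and 273, 266, 346 and 355 CPM in AAV8-AGXT mice. Mouse 319 lay just below mouse 303 (log2 fold change -0.32, SE 0.14, adjusted p = 0.186). Because 34.4% of its exon bases overlap another annotated gene on the same strand, Gm49369, its count is uncertain. Ctsa, a serine carboxypeptidase that also protects lysosomal neuraminidase and beta-galactosidase, had 273, 278, 237 and 253 CPM against 237, 214, 260.2 and 263 CPM, in overlapping ranges (log2 fold change -0.09, SE 0.12, adjusted p = 0.648). Ctse, an aspartic protease of stomach and immune cells, had at most 2.26 CPM in any mouse and a log2 fold change of -0.0014 (SE 0.22).

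In the V0 sector none of the 8 tested genes was called by edgeR, 1 was higher and 2 were lower at an unadjusted p under 0.05, and DESeq2 called the same 3 (Atp6v0a2, Atp6v0e and Atp6v0e2), where 26.2% of all genes passed the unadjusted threshold and 13.6% were called by DESeq2. Subunit a holds the path of the protons and directs the pump to its membrane, and its isoform Atp6v0a2 (chromosome 5, 124628576 to 124724455) is known from the Golgi and endosomes. Atp6v0a2 had 34.4, 32.7, 31.9 and 34.2 CPM in AAV8-GFP mice and 45.4, 41.5, 39.5 and 39.7 CPM in AAV8-AGXT mice. On the TMM scale the gap between the groups was wider than the whole range of the AAV8-GFP mice (log2 fold change 0.32, SE 0.09, adjusted p = 0.0666). With total counts the groups were not apart (log2 fold change 0.08, adjusted p = 0.556). Of its exon bases 9.86% overlap an antisense gene. Atp6v0a1 had 68.8, 61.5, 57.4 and 61.7 CPM against 66.3, 56.5, 64.3 and 57.7 CPM, a nearly complete overlap (log2 fold change -0.03, SE 0.10).

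Subunit e is a small membrane protein of V0. Atp6v0e (chromosome 17, 26663231 to 26699647) had 61.0, 55.2, 60.2 and 60.6 CPM in AAV8-GFP and 53.0, 45.9, 51.4 and 49.8 CPM in AAV8-AGXT mice. Every AAV8-AGXT mouse was lower, although mouse 311 came within a few CPM of mouse 308 (log2 fold change -0.24, SE 0.09, adjusted p = 0.114). Its isoform Atp6v0e2, best known from brain, had 3.05, 4.59, 4.11 and 1.32 CPM against 0.690, 1.62, 1.59 and 1.89 CPM. Mouse 315 lay among the AAV8-AGXT mice (log2 fold change -1.16, SE 0.41, adjusted p = 0.114), and without it the adjusted p was 0.0483.

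Subunit d couples the proteolipid ring to the rotor. Atp6v0d1, the general isoform, had 86.5, 84.1, 87.2 and 99.8 CPM in AAV8-GFP mice and 105, 93.5, 82.2 and 94.6 CPM in AAV8-AGXT mice, in overlapping ranges (log2 fold change 0.07, SE 0.11). Atp6v0d2 (chromosome 4, 19876841 to 19922605), the isoform of osteoclasts and some macrophages, had 5.35, 9.03, 10.3 and 6.22 CPM against 0.207, 3.31, 7.14 and 3.07 CPM. Mouse 308 had 3 read pairs on this gene, and mouse 316 lay within the AAV8-GFP range (log2 fold change -1.15, SE 0.60, adjusted p = 0.258, -0.79 without mouse 308 and -1.78 without mouse 316). As a share of the macrophage marker sum Atp6v0d2 came to 0.632 ± 0.106% in AAV8-GFP and 0.387 ± 0.280% in AAV8-AGXT mice (SD, n = 4 each), with the lowest share, 0.0686%, in mouse 308.

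Of the ring subunits, Atp6v0b had 91.6, 101, 87.9 and 97.4 CPM against 95.6, 75.8, 87.7 and 85.7 CPM (log2 fold change -0.13, SE 0.10), and Atp6v0c ran from 24.7 to 35.6 against 31.6 to 37.1 CPM (0.16, SE 0.12). Both pairs of ranges overlapped.

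In the V1 sector edgeR called none of the 9 tested genes, and the lowest fold changes belonged to subunit G, part of the stalk that holds the catalytic head in place. At an unadjusted p under 0.05 its 2 genes were lower and no other V1 gene passed. Of all tested genes 26.2% passed that threshold, 12.6% in the lower direction. Limma-voom called neither of the 2 genes. Atp6v1g1 (chromosome 4, 63544772 to 63550750) had 89.0, 80.5, 77.9 and 84.9 CPM in AAV8-GFP mice and 71.1, 62.9, 69.3 and 68.2 CPM in AAV8-AGXT mice. The groups lay apart (log2 fold change -0.29, SE 0.09, adjusted p = 0.0833). Atp6v1g2 (chromosome 17, 35233660 to 35238767), an isoform known from neurons, had 4.33, 5.63, 4.84 and 5.25 CPM against 3.24, 3.43, 3.80 and 2.88 CPM. These were also apart (log2 fold change -0.59, SE 0.17, adjusted p = 0.0755), with counts of 47 to 184 read pairs per mouse and 5.74% of its exon bases shared with another gene. DESeq2, which called 6.59% of all genes lower, and the fit with total counts called both genes lower. With total counts 6.56% of all genes were called, 5.62% lower and 0.944% higher, and the members called were these 2 and Atp6v0e.

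The other 7 tested V1 genes had overlapping groups and log2 fold changes between -0.15 and 0.23. Atp6v1c1, a regulator of assembly, had 32.6, 35.2, 41.9 and 38.0 CPM against 48.5, 39.7, 44.1 and 40.6 CPM, where only mouse 314 lay inside the AAV8-AGXT range (log2 fold change 0.23, SE 0.11, adjusted p = 0.218). Atp6v1h, another regulatory subunit, had a log2 fold change of 0.18 (SE 0.09, adjusted p = 0.259). The nucleotide-binding subunits Atp6v1a (catalytic) and Atp6v1b2 had 0.08 (SE 0.13) and -0.11 (SE 0.08). Atp6v1b2 had 66.2, 71.8, 71.6 and 74.8 CPM against 65.2, 64.6, 64.6 and 69.98 CPM, with mouse 319 inside the AAV8-GFP range. The rotor subunits Atp6v1d and Atp6v1f had 0.06 (SE 0.09) and -0.15 (SE 0.14). Atp6v1f had 74.4, 81.7, 69.8 and 78.9 CPM against 84.7, 53.1, 66.8 and 70.9 CPM, with both extremes in AAV8-AGXT mice. Atp6v1e1, the partner of subunit G in the stalk, had 129, 119, 125 and 123 CPM against 124, 115, 122 and 129 CPM, an even level in both groups (log2 fold change -0.015, SE 0.09).

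**Figure D4:**
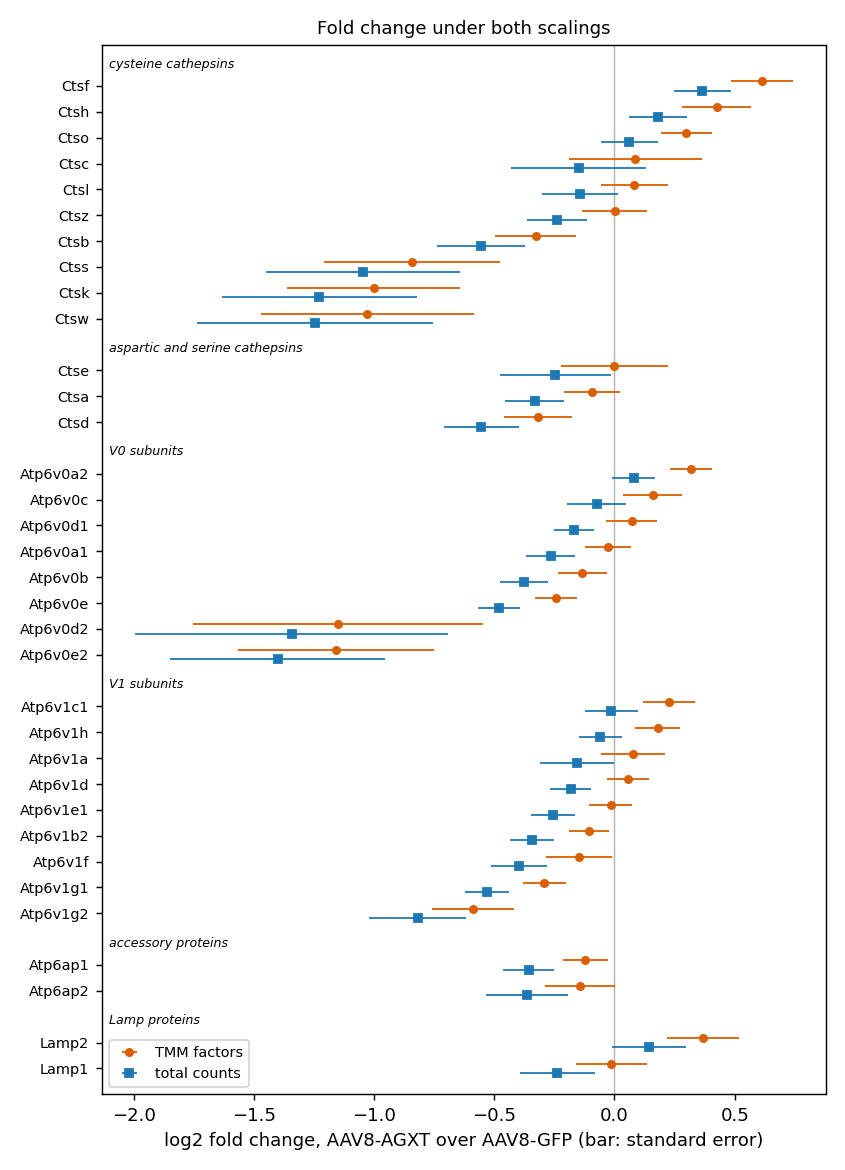
Log2 fold change of AAV8-AGXT over AAV8-GFP mice with its standard error (x axis) for the 34 tested genes (y axis, by role), with TMM factors (orange circles) and with total counts (blue squares). Total counts shift every gene to the left by about the same amount, so that 5 genes lie above 0 in place of 14.

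The balance of isoforms within a mouse does not depend on the scaling of the library. The ratio of Atp6v0a2 to Atp6v0a1 was 0.499, 0.532, 0.555 and 0.554 in AAV8-GFP mice and 0.685, 0.735, 0.615 and 0.689 in AAV8-AGXT mice, with means of 0.535 ± 0.0261 and 0.681 ± 0.0495 (SD, n = 4 each). Every AAV8-AGXT mouse was higher. An exact permutation test (two-sided) gave p = 0.0286, the smallest value possible with 4 mice a group, and 0.114 after Benjamini-Hochberg adjustment over 4 ratios. The ratio of Atp6v0d2 to Atp6v0d1 was 0.0874 ± 0.0295 against 0.0391 ± 0.0352 (exact permutation p = 0.0857, adjusted 0.114), that of Atp6v1g2 to Atp6v1g1 was 0.0607 ± 0.00882 against 0.0493 ± 0.00637 (exact p = 0.0857, adjusted 0.114), and that of Atp6v0e2 to Atp6v0e was 0.0558 ± 0.0264 against 0.0293 ± 0.0112 (exact p = 0.2). In these 3 pairs the groups overlapped, and none of the 4 ratios passed the adjustment. The ratios were chosen after the files were seen.

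Among the accessory and membrane proteins, Lamp2 was higher in every AAV8-AGXT mouse. Lamp2 (chromosome X, 38401357 to 38456454), whose splice forms serve membrane stability and chaperone-mediated autophagy and are counted here as 1 gene, had 298, 284, 385 and 372 CPM in AAV8-GFP mice and 401, 517, 414 and 397 CPM in AAV8-AGXT mice. The AAV8-GFP mice formed a lower and a higher pair, and mouse 309 exceeded the other AAV8-AGXT mice (log2 fold change 0.37, SE 0.15, adjusted p = 0.154). With total counts the log2 fold change was 0.14 (adjusted p = 0.548). Lamp1 (chromosome 8, 13159161 to 13175338), with which it shares the lysosomal membrane, had 497, 503, 622 and 642 CPM against 474, 656, 558 and 554 CPM, in overlapping ranges (log2 fold change -0.01, SE 0.15). Atp6ap1, an assembly factor, had 85.5, 97.1, 103 and 98.3 CPM against 89.0, 91.2, 86.3 and 86.4 CPM (log2 fold change -0.12, SE 0.09, adjusted p = 0.439). Atp6ap2, an assembly factor also known as the prorenin receptor, had 32.5, 32.9, 40.5 and 43.2 CPM against 30.2, 41.7, 34.6 and 28.6 CPM (log2 fold change -0.14, SE 0.15, adjusted p = 0.572). Both accessory genes had overlapping groups.

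The filter on low counts left out 11 members, of which 7 had no read pair in any mouse, for which a count of 0 allows up to 3 read pairs per mouse. They were Ctsg, a protease of neutrophil granules, the placental cathepsins Ctsm, Ctsq and Ctsr, the kidney isoforms Atp6v1b1 and Atp6v1g3, and Atp6v1e2 of testis. The other 4 were Ctsj (35 read pairs over all mice), Atp6v1c2 (20), Atp6v0a4 (6) and Atp6v1fnb (1), a neighbour of Atp6v1f that is named for its place and is not a subunit, and none had over 14 read pairs in a mouse. None of 6 markers of acid-secreting kidney cells passed the filter either.

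The rest of the lysosomal system was described from 10 lists of 156 genes outside the rule, of which 139 were tested. Of these, 4 were called higher and 5 lower (6.47%, against 4.35% of all tested genes), and their median log2 fold change was -0.02. Of 13 lipid hydrolases and carriers, Npc1, the membrane cholesterol exporter, was higher (log2 fold change 0.55, SE 0.13, adjusted p = 0.0461) and the phospholipase D family member Pld3 lower (-0.59, SE 0.14, adjusted p = 0.0450). Gpcpd1, a glycerophosphodiesterase of the cytosol that was on the same list, was higher by 2.14 (SE 0.15, adjusted p = 0.00067). It is counted among the 4 called higher although it is not lysosomal. Of 23 tested membrane proteins and transporters, Scarb2, the receptor that brings glucocerebrosidase to lysosomes, was higher (0.55, SE 0.12, adjusted p = 0.0400) and the tetraspanin Cd63 lower (-1.61, SE 0.37, adjusted p = 0.0455). Of 12 other proteases and phosphatases, the peptidases Prcp (-0.61, SE 0.13, adjusted p = 0.0426) and Dpp7 (-0.49, SE 0.12, adjusted p = 0.0489) were lower.

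None of 19 glycosidases, 8 sulfatases, 13 genes of enzyme delivery, 12 tested genes of V-ATPase assembly or 15 tested genes of the TFEB family and mTORC1 (a nutrient-sensing kinase complex at the lysosome) was called by edgeR. At an unadjusted p under 0.05, which 26.2% of all tested genes passed, the counts were 5, 1, 1, 3 and 0, near or below that share in each list. DESeq2 called 3, 1, 0, 1 and 0 of them, beside 13.6% of all genes, and limma-voom none. The other lists lay above 26.2%, with 10 of 23 membrane proteins and transporters and 9 of 22 autophagy genes at that unadjusted p. There were also 4 of 12 other proteases and phosphatases, 4 of 13 lipid hydrolases and carriers and 1 of 2 cathepsin inhibitors. Of all 139 tested list genes 38 passed it, 23 higher and 15 lower. DESeq2 called 1 membrane gene higher and 5 lower, 3 proteases or phosphatases lower, 2 lipid genes higher and 1 lower, and 1 inhibitor lower. Among 22 autophagy genes Atg16l1 was called higher (0.41, SE 0.10, adjusted p = 0.0492), 8 lay apart in the higher direction on the TMM scale (8.93% of all tested genes did), and the median was 0.21. DESeq2 called 4 of them higher, and the fit with total counts called none. The summed level of this list turned with the scaling. On the TMM scale it was higher in every AAV8-AGXT mouse (2887 to 3188 against 2602 to 2882 CPM). On the scale of total counts it was lower in every one (2644 to 2920 against 2943 to 3023 CPM).

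Several of these genes belong to the same pump or act on the members. Tcirg1, the a3 isoform of the proton pump of osteoclasts and immune cells, had 100.4, 149, 103 and 125 CPM in AAV8-GFP mice and 54.3, 61.7, 91.4 and 98.6 CPM in AAV8-AGXT mice. Its groups lay just apart (log2 fold change -0.64, SE 0.21, adjusted p = 0.0965). Cstb, an intracellular inhibitor of cysteine cathepsins, had 70.6, 80.8, 77.7 and 70.7 CPM against 46.0, 43.4, 63.0 and 55.3 CPM, and it was called lower (log2 fold change -0.53, SE 0.13, adjusted p = 0.0489). The secreted inhibitor Cst3 ran from 233 to 303 CPM in AAV8-GFP and from 204 to 241 CPM in AAV8-AGXT mice (-0.24, SE 0.12, adjusted p = 0.234). For the transcription factors, Tfeb had 15.7, 18.8, 17.4 and 17.3 CPM against 17.2, 14.1, 15.0 and 16.9 CPM (log2 fold change -0.13, SE 0.11, adjusted p = 0.493), Tfe3 had a log2 fold change of 0.07 (SE 0.10, adjusted p = 0.685) and Mitf of -0.19 (SE 0.20, adjusted p = 0.590). The groups overlapped for all 3 factors.

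Members with the CACGTG palindrome in their promoter were spread over both directions. The 9 with it ranged from -0.32 (Ctsd) to 0.61 (Ctsf) around a median log2 fold change of -0.01, and the 15 tested members whose promoter was in the table without it ranged from -1.16 to 0.37 around -0.03. On the TMM scale 1 gene with the palindrome lay apart in the higher direction and 2 in the lower one. Of those without it, 2 and 1 did. Of all tested genes 8.93% and 7.63% did so. With total counts 0 of the 34 members lay apart in the higher direction and 11 in the lower one. Of all tested genes 2.66% and 17.5% then did. The 10 members missing from the promoter table could not be placed. Among them were Ctsh and Atp6v0a2, which lay apart in the higher direction, and Atp6v1g1, which did in the lower one.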

How the data were processed

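Liver RNA of 8 mice was sequenced by the authors as stranded mRNA libraries in read pairs, trimmed with Trimmomatic 0.35, mapped with HISAT2 2.1.0.13 to GRCm38 and counted on Ensembl genes with HTSeq. The deposited values are raw counts. The strand option is not given in the sources used here, so overlapping genes are uncertain. Mice were grouped by the treatment in the sample labels. Of 52636 genes, 52489 matched GENCODE M21, and 2 pseudogenes with matching symbols were left out. Tallies of pairs on no gene stayed out of library sizes.

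Counts were tested with edgeR 4.0.16 (filterByExpr, TMM, quasi-likelihood, not robust) in R 4.3.3. The threshold for a call was an adjusted p under 0.05. The common coefficient of variation between mice was 23.3%, and intervals from counting alone were not used. Alternatives were DESeq2 1.42.0, limma-voom (limma 3.58.1), robust estimation, other scalings and filters, and each mouse left out. Scripts were tested on simulated data, where DESeq2 made more false calls than its nominal level. The members and lists were chosen with earlier results of these data known. Values per mouse are given for called members, the 2 members with the smallest p and the most abundant one in each role, and tested isoform groups. Ctso, Ctss, Ctsk and Ctsb were added after their values were seen, as was Ctsw. Promoters are from RefSeq. The leading genes of some marker lists are not reported here.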

Additional observations from a re-analysis of the deposited data

Results flagged for a closer look

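In 6 of 68 groups of 4 mice, the CPM of 1 mouse stood apart from the other 3 by more than Dixon's 95% critical share of the range, where chance gives about 5% of groups. Lamp2 was 517 CPM in AAV8-AGXT mouse 309, and the other mice of the group had 397 to 414 CPM. Atp6v0e was 55.2 CPM in AAV8-GFP mouse 311, below the 60.2 to 61.0 CPM of the others. Ctsd was 444 CPM in the same mouse, above 359.5 to 372 CPM. Ctsb was 727 CPM in AAV8-GFP mouse 303, below 944 to 986 CPM. Atp6v1b2 was 69.98 CPM in AAV8-AGXT mouse 319, above 64.6 to 65.2 CPM, and Ctse was 1.44 CPM in AAV8-AGXT mouse 309, below 2.03 to 2.14 CPM.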

How the results depend on the processing

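DESeq2 called 1068 genes higher and 1034 lower, and 3 members higher (Atp6v0a2, Ctsf and Ctsh) and 4 lower (Atp6v0e, Atp6v0e2, Atp6v1g1 and Atp6v1g2). Upper-quartile factors left 0 members called higher and a member median of -0.087. Total counts gave 144 genes higher and 857 lower, 0 members higher and 3 lower (Atp6v0e, Atp6v1g1 and Atp6v1g2), and a member median of -0.26, with the median of all genes at -0.22. With each mouse left out, between 2 and 379 genes were called higher and between 0 and 325 lower, with the fewest without mouse 311 (2 in all), 319 (14) and 314 (15). Members called higher then numbered 0 or 1 and members called lower 0 or 1, and the member median lay between -0.086 and -0.033. Limma-voom, robust estimation, DESeq2's size factors, no filter and at least 10 counts in every mouse called Ctsf only.

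The log2 fold change kept its sign under every alternative in 21 of 34 members. With total counts it turned to -0.075 for Atp6v0c, -0.17 for Atp6v0d1, -0.16 for Atp6v1a, -0.013 for Atp6v1c1, -0.18 for Atp6v1d, -0.058 for Atp6v1h, -0.15 for Ctsc, -0.14 for Ctsl and -0.24 for Ctsz, in step with the shift of all genes. Ctsz was -0.011 with DESeq2, -0.00054 with limma-voom, -0.014 with DESeq2's size factors, -0.065 with upper-quartile factors, -0.024 without a filter and -0.040 with at least 10 counts in every mouse. Atp6v1d was -0.0065 with upper-quartile factors and Ctse 0.00086 with limma-voom. With a mouse left out, the signs of Ctsz (-0.085 to 0.065), Ctse (-0.065 to 0.094), Ctsc (-0.26 to 0.26), Ctsl (-0.0088 to 0.13), Lamp1 (-0.11 to 0.055), Atp6v0a1 (-0.087 to 0.025), Atp6v0d1 (-0.00092 to 0.13), Atp6v1a (-0.0050 to 0.17) and Atp6v1e1 (-0.054 to 0.0050) also turned. The cause of these turns was not tested. No paired analysis was possible because the 2 groups share no animal numbers.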
